A study of Mus musculus with 7 samples.

Results

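The genes described here are 34 mouse genes whose products work in the nucleolus, where ribosomes are made. They were chosen by name, with no threshold on their values, as known components of RNA polymerase I transcription and of ribosomal RNA processing that belong to the classic Myc-driven genes. They are 34 of the 27179 genes counted in each library, and all 34 were abundant enough to be tested. RNA-seq was performed on 7 lymphoma cell lines from male C57BL/6 mice carrying the Eµ-Myc transgene, in which an immunoglobulin enhancer drives Myc in the B cell lineage. Of these, 3 lines were Smchd1 Wild-type and 4 were Smchd1 null. The labels describe the null genotype as a homozygous Smchd1 gene trap, while the study's methods write the homozygous allele as MD1. All 7 lines came from end-stage tumours and all carried the Myc transgene, so both groups represent tumours already driven by Myc. The labels give neither the age of the mice nor whether each line came from a separate mouse, and p-values therefore measure the spread between these lines. In the wild-type group, replicates 2 and 3 were closely alike and carried most of the weight in that measure. The experiment asked which genes depend on Smchd1, which encodes a chromatin protein needed to keep certain genes silent.

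Ribosome production begins in the nucleolus, where RNA polymerase I transcribes the ribosomal DNA repeats into a long precursor. Small nucleolar ribonucleoproteins (snoRNPs) guide the chemical modification of this precursor, and separate sets of assembly factors cleave and fold it into the small and the large ribosomal subunits. Many genes of this pathway are bound by Myc at E-boxes near their starts, and Myc-driven lymphomas are known for large nucleoli. The 34 genes comprise 5 of RNA polymerase I transcription, 7 of the snoRNPs, 6 of small subunit assembly, 11 of large subunit assembly and 5 abundant or multifunctional nucleolar proteins.

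Promoter sequences from RefSeq (GRCm38.p6) were available for 28 of the 34 genes, as 36 windows of 300 bases that run from 250 bases before each transcription start to 50 bases after it. The windows were searched on both strands for the canonical E-box CACGTG, which reads the same on either strand, and for the variant CACGCG, which reads CGCGTG on the other strand. CACGTG was present in 5 of the 36 windows (13.9%), against 7.15% of 32851 windows of all genes. CACGCG was present in 10 of the 36 windows (27.8%), against 9.27% of all windows. These matches describe letters in a window and do not show binding. The following stretches of 60 bases are shown, each written 5′ to 3′ on the strand of its gene with any match in capitals. Nop16 and Npm3 are shown as the genes with the largest positive and negative fold changes, and Nolc1 and Nop2 as examples of each motif.
Nop16, chr13:54590098-54590157, minus strand: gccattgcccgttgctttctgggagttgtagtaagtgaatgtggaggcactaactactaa
Npm3, chr19:45749566-45749625, minus strand: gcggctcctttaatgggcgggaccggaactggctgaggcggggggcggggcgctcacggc
Nolc1, chr19:46075787-46075846, plus strand: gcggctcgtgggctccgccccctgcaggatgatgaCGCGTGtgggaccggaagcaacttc
Nop2, chr6:125131798-125131857, plus strand: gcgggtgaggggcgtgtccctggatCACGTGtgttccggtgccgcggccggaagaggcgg
The CACGCG match of Nolc1 begins 25 bases before the transcription start, and the CACGTG match of Nop2 begins 60 bases before it. Nop16 has a CACGCG match after its start, outside the stretch shown. No match was present in the window of Npm3.

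Total counts per library ranged from 3626853 to 7519549. Wild-type replicate 1 was the only library of batch 1 and of single-end reads, and the other 6 were paired-end libraries of batch 2, so that line and its batch cannot be told apart. Wild-type replicate 1 and Smchd1 null replicate 4 stood apart from their groups and received sample weights of 0.246 and 0.249, against 3.79 and 3.06 for wild-type replicates 2 and 3. The latter pair were closely alike, with a chi-square per gene of 3.96 against 18.1 to 64.9 for every other pair within a group, which is still more than sampling noise, and they were counted as 2 lines. Smchd1 itself, in CPM (counts scaled to the library total), fell to 11.4% of its wild-type level. It averaged 232 ± 14.9 CPM (SD, n = 3) in wild-type lines against 26.5 ± 2.85 CPM (SD, n = 4) in Smchd1 null lines, and its levels did not overlap between groups (log2 fold change −3.16, SE 0.11, limma FDR 2.18e-05).

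The nucleolar genes were strongly expressed in every line. No gene had fewer than 209 counts in any library, and their mean levels over the 7 lines ran from 49.6 CPM for Fbl to 3788 CPM for Ncl. Together they took between 1.16% and 1.72% of all counts. Levels of different genes were compared per kilobase of gene length. On that scale Npm1, which encodes the abundant nucleolar chaperone nucleophosmin, was highest at 638 CPM per kilobase (mean of 7 lines). Ncl, which encodes the RNA-binding protein nucleolin, followed at 459 CPM per kilobase. Nhp2, a core protein of the H/ACA snoRNPs that direct pseudouridylation, was next at 279 CPM per kilobase. The lowest were Utp20, a very large component of the small subunit processome, at 19.7 CPM per kilobase, Rrp12, which acts in maturation and export of pre-ribosomes, at 22.7, and Wdr12, a large subunit factor, at 29.6. Within the box C/D snoRNP, which carries out ribose methylation, the methyltransferase Fbl stood at 42.8 CPM per kilobase while the scaffold proteins Nop56 and Nop58 stood at 226 and 275. These comparisons between genes rest on the deposited gene lengths, and how reads that map to several places were counted was not stated.

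The summed level of the 34 genes differed little between genotypes. It was 17171, 12861 and 11644 CPM in wild-type replicates 1 to 3, and 15849, 14645, 15263 and 12411 CPM in Smchd1 null replicates 1 to 4. The highest and the lowest line were both wild-type, so the Smchd1 null lines lay inside the wild-type range. The means were 13892 ± 2904 CPM (SD, n = 3) and 14542 ± 1503 CPM (SD, n = 4), a ratio of 1.05 that is well within the spread between lines. Ncl alone made up 26.6% of the sum and Npm1 7.68%. Without both genes the ratio was 1.03, and per kilobase it was 1.01.

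By role, the summed level of the RNA polymerase I genes was 1318 ± 147 CPM (SD, n = 3) in wild-type lines and 1509 ± 113 CPM (SD, n = 4) in Smchd1 null lines, a ratio of 1.15. The large subunit genes gave a ratio of 1.09, from 2192 ± 514 to 2395 ± 249 CPM. The abundant nucleolar proteins gave 1.06. The small subunit genes gave 0.995 and the snoRNP genes 0.959. In each of these 5 sums the groups overlapped.

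**Figure D1:**
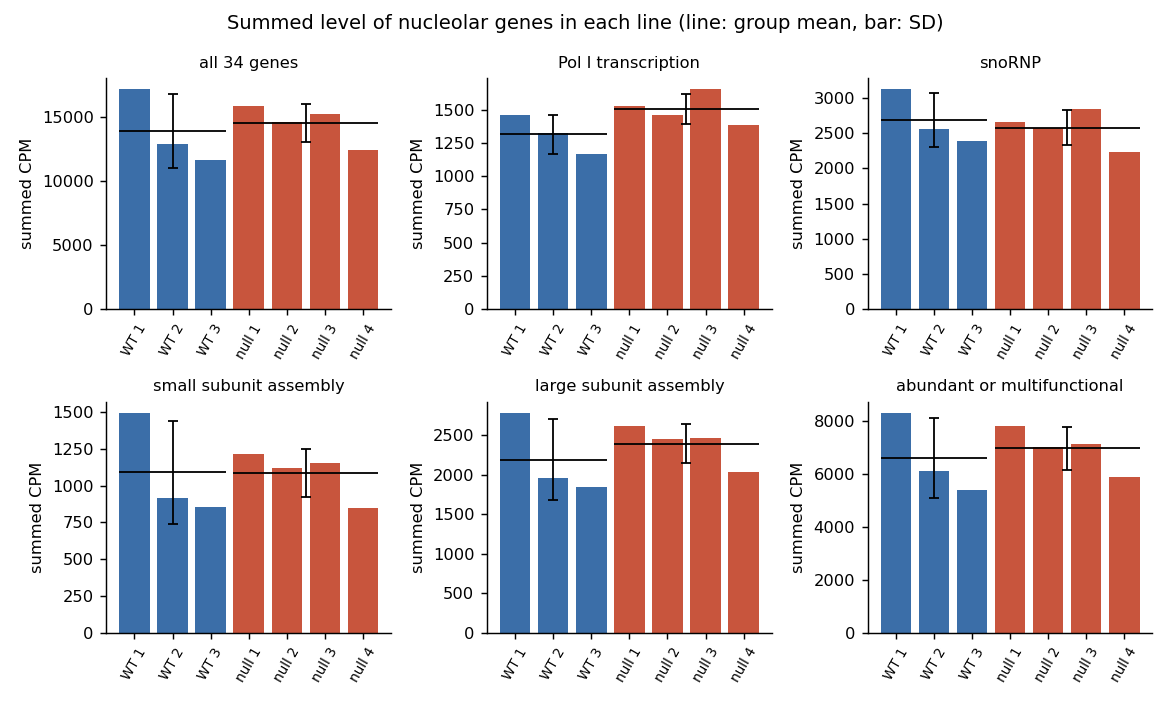
Summed CPM (y axis) of all 34 genes and of each role in the 7 lines (x axis), with wild-type (WT) lines in blue and Smchd1 null lines in red. Horizontal lines are group means and error bars are SD (n = 3 and n = 4); the sum of all 34 genes runs from 11644 to 17171 CPM in wild-type lines and from 12411 to 15849 CPM in Smchd1 null lines.

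The genes moved together from line to line. The deviation of each gene from its own mean over the 7 lines was taken on the log2 scale of TMM-scaled CPM, TMM being a scaling between libraries by the trimmed mean of M-values. The median deviation of the 34 genes was 0.26 in wild-type replicate 1, −0.14 in replicate 2 and −0.28 in replicate 3. It was 0.18, 0.08 and 0.13 in Smchd1 null replicates 1 to 3 and −0.26 in replicate 4. Each group thus held both high and low lines. The same medians over the 2596 genes with a mean of at least 100 CPM were 0.01, −0.01 and −0.04 in wild-type lines and 0.06, 0.01, 0.07 and −0.11 in Smchd1 null lines. They had the same sign as those of the nucleolar genes in each line and were smaller in size.

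On the TMM scale, wild-type replicate 1 was the highest of all 7 lines for 18 of the 34 genes. It was the highest for 2733 of all 12303 genes tested. It exceeded both other wild-type lines in 30 of the 34, against 47.5% of all genes tested. On that scale Smchd1 null replicate 4 was the lowest line for 16 genes and wild-type replicate 3 for 15. Of all 12303 genes, these lines were lowest for 2607 and 1396. Replicate 4 lay below the other 3 Smchd1 null lines in 30 of the 34 genes, against 31.9% of all genes. The remaining contrast was between Smchd1 null replicates 1 to 3 and wild-type replicates 2 and 3, in which all 3 null lines exceeded both wild-type lines for 25 of the 34 genes, against 23.8% of all genes. This contrast sets aside wild-type replicate 1 and Smchd1 null replicate 4, the lines that ran the other way, after their values were seen. These counts describe the lines and carry no test.

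**Figure D2:**
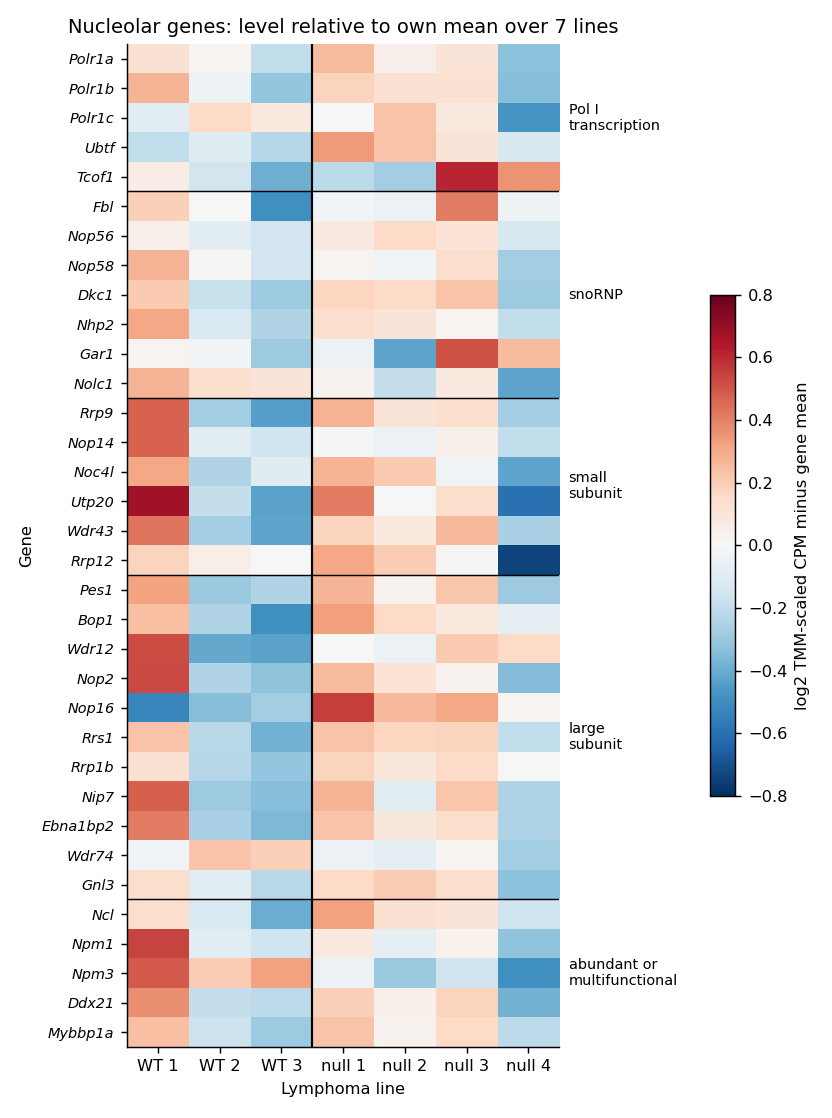
Deviation of each gene (y axis, grouped by role) from its own mean over the 7 lines (x axis), in log2 TMM-scaled CPM, with red above and blue below the mean. WT marks wild-type lines; wild-type replicate 1 is above the gene mean for 30 of 34 genes and Smchd1 null replicate 3 for 32, while wild-type replicate 3 and Smchd1 null replicate 4 are above it for only 4 each.

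Utp20 varied most between lines, with an SD of log2 CPM of 0.45 over the 7 lines. It stood at 274, 145 and 123 CPM in wild-type replicates 1 to 3 and at 218, 167, 181 and 113 CPM in Smchd1 null replicates 1 to 4. The highest line was wild-type replicate 1, which also had the highest summed level, and the lowest was Smchd1 null replicate 4. At the other end, Nop56 had an SD of 0.12, with 453, 396 and 380.0 CPM in wild-type lines and 439, 473, 454 and 398 CPM in Smchd1 null lines. Its highest line exceeded its lowest only 1.24-fold, against 2.42-fold for Utp20 and a median of 1.65-fold. Nop58, its partner in the box C/D snoRNP, was also among the steadiest, with an SD of 0.18. It stood at 671, 539 and 481 CPM in wild-type lines and at 538, 532, 588 and 456 CPM in Smchd1 null lines, and the groups overlapped.

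Lineage markers were examined for the lines that stood apart. The summed level of 8 B cell markers was 1136 to 1521 CPM in wild-type lines and 517 to 2116 CPM in Smchd1 null lines, with the lowest value in replicate 4. The summed level of 5 endothelial markers was 47.7 to 70.4 CPM in wild-type lines and 63.3 to 223 CPM in Smchd1 null lines, with the highest in replicate 4 and with Kdr and Vwf at 0 in all lines. For 8 T cell markers the sums were 17.9 to 61.8 CPM, highest in wild-type replicate 1, and 1.61 to 12.1 CPM, with Cd3e and Cd8a at 0 in all lines. For 7 myeloid markers they were 3.03 to 12.2 CPM and 0.296 to 27.8 CPM, with Elane at 0. The 5 NK cell markers summed to at most 2.53 CPM in any line and 4 erythroid markers to at most 1.33 CPM. All 8 B cell markers were abundant enough to be tested, but only 1 T cell, 2 endothelial and 2 myeloid markers were. The sums outside the B cell list thus rest on few genes. In the test described below, 1 B cell marker was called higher, and 1 B cell and 1 T cell marker lower (against 5.06% and 6.85% of all genes). The part of these differences in the levels of the nucleolar genes was not tested, and in bulk RNA a smaller share of expressing cells and less RNA per cell cannot be told apart.

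Differential expression was tested with voom and sample weights in limma, over 12303 genes, at a false discovery rate (FDR) under 0.05. At this threshold 6 of the 34 nucleolar genes were called (17.6%), against a percent called of 11.9 over all genes tested. Higher expression in Smchd1 null lines was called for 5 genes (14.7%, against 5.06% of all genes), namely Nop16, Bop1, Rrs1, Rrp1b and Ubtf. Lower expression was called for 1 gene (2.94%, against 6.85% of all genes), namely Npm3. Estimates were positive for 30 genes and negative for 4, with a median log2 fold change of 0.28 against −0.01 over all genes and 0.07 over genes with a mean of at least 100 CPM. The median is relative to the TMM scaling. Within batch 2, that is without wild-type replicate 1, 12 genes were called (11 higher and 1 lower, 5 of them shared with the 6). Of all 12303 genes, 13.7% were called in that fit, 681 higher and 1002 lower. Its wild-type group held only replicates 2 and 3, which were closely alike, so the fit may understate the spread between wild-type lines. This holds for each batch 2 result below.

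These estimates depended on the weights. For 8 genes with a positive weighted estimate (Nop58, Nhp2, Nop14, Utp20, Rrp12, Nop2, Npm1 and Ddx21) the plain mean CPM was lower in Smchd1 null lines than in wild-type lines. The plain mean was higher in Smchd1 null lines for 22 of the 34 genes, and edgeR, which used no sample weights, gave positive estimates for 24. All 6 called genes had plain means in the direction of their estimates. The calls also depended on single lines. Without wild-type replicate 2 or 3 none of the 34 genes was called by limma. In each of these fits 1 of all 12303 genes was called, and 2 of the 34 had an unadjusted p under 0.05. With wild-type replicates 2 and 3 summed into 1 sample, limma also called none of the 34 and 1 of all genes. Without Smchd1 null replicate 1, 2 or 3 only Nop16 was called among the 34, when 443, 281 and 923 of all genes were called. Voom alone and edgeR also called none of the 34, with 2 at an unadjusted p under 0.05 by each, against 0.0975% of all genes called by each. DESeq2 called Nop16 and Npm3 (FDR 0.00461 and 0.0151), against 3.12% of all genes. Voom with block weights called only Nop16 among the 34 (FDR 0.0308), against 4.01% of all genes.

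**Figure D3:**
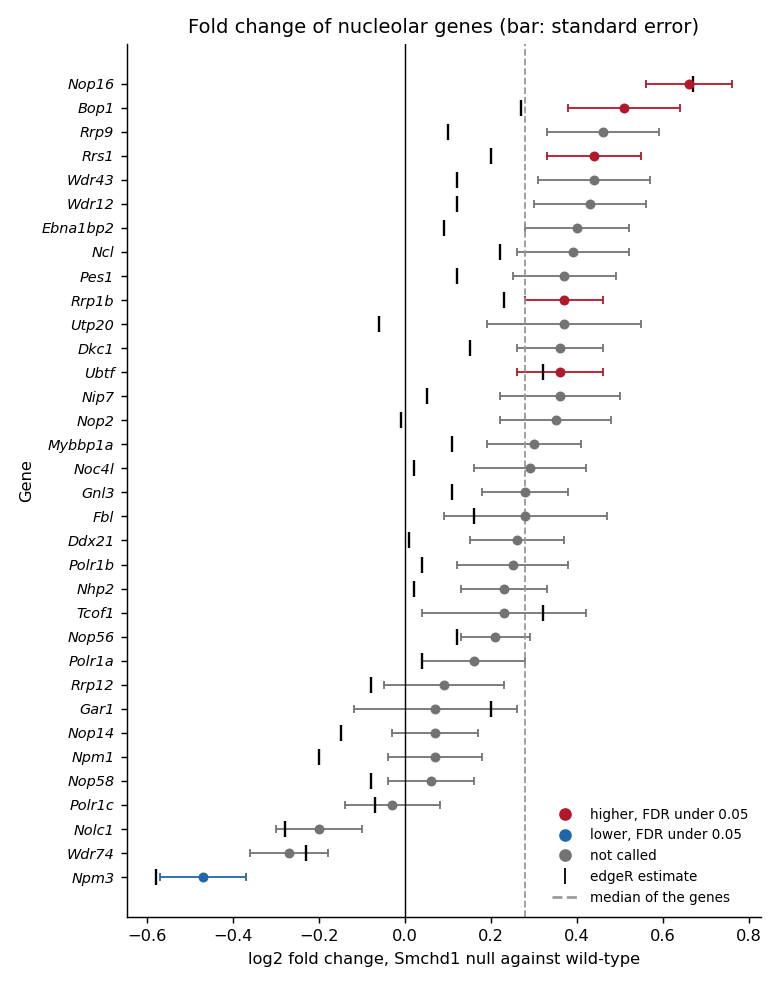
Log2 fold change of each gene (y axis) in Smchd1 null against wild-type lines (x axis), with the standard error from voom with sample weights; red and blue points are called higher and lower. Vertical ticks are the edgeR estimates without sample weights, and the dashed line is the median of 0.28; 30 points lie to the right of 0, and most ticks lie to the left of their points.

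Nop16 rose in Smchd1 null lines by the largest factor. It encodes a factor of large subunit assembly and lies at chr13:54584191-54590097 (Entrez 28126). Its level was 116, 126 and 132 CPM in wild-type replicates 1 to 3 and 230.4, 193, 197 and 167 CPM in Smchd1 null replicates 1 to 4. Every Smchd1 null line was above every wild-type line, and Nop16 was low in wild-type replicate 1, which was high for most of the other genes. The wild-type mean was 125 ± 7.85 CPM (SD, n = 3) and the Smchd1 null mean 197 ± 25.9 CPM (SD, n = 4). This gave a log2 fold change of 0.66 (SE 0.10, limma FDR 0.0122). The estimate was 0.65 within batch 2 (limma FDR 0.0133) and 0.58 to 0.77 when each line was left out in turn.

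Bop1 and its partners Pes1 and Wdr12 form the PeBoW complex, which is needed to process the precursor of the large subunit RNAs. Bop1 stood at 313, 215 and 181 CPM in wild-type lines and 317, 287, 267 and 250.3 CPM in Smchd1 null lines. Wild-type replicate 1 lay within the Smchd1 null range, while replicates 2 and 3 lay below it. Bop1 rose with a log2 fold change of 0.51 (SE 0.13, limma FDR 0.0409; 0.55 within batch 2, limma FDR 0.03). Pes1 had a log2 fold change of 0.37 (SE 0.12, limma FDR 0.0729), from 168 ± 46.9 to 180.0 ± 26.5 CPM. Wdr12 stood at 144, 72.5 and 71.4 CPM in wild-type lines and 95.5, 94.1, 111 and 111 CPM in Smchd1 null lines. The Smchd1 null lines lay between wild-type replicate 1 and the other wild-type lines, and the log2 fold change of 0.43 did not pass (SE 0.13, limma FDR 0.0632). Pes1 and Wdr12 were called within batch 2.

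Rrs1, which helps to incorporate the 5S ribonucleoprotein into the large subunit, rose with a log2 fold change of 0.44 (SE 0.11, limma FDR 0.0427; 0.46 within batch 2, limma FDR 0.0315). It stood at 215, 152 and 135 CPM in wild-type lines and at 205, 200.0, 199 and 158 CPM in Smchd1 null lines. Rrp1b, a nucleolar protein of large subunit maturation, rose with a log2 fold change of 0.37 (SE 0.09, limma FDR 0.035; 0.39 within batch 2, limma FDR 0.0274). It stood at 250.1, 188 and 178 CPM in wild-type lines and at 246, 236, 244 and 227 CPM in Smchd1 null lines. In CPM wild-type replicate 1 was the highest of the 7 lines for both genes. Wild-type replicates 2 and 3 were the lowest, so the groups overlapped. On the TMM scale Rrp1b deviated by 0.12 in wild-type replicate 1, below 0.18 and 0.15 in Smchd1 null replicates 1 and 3.

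The other large subunit genes had estimates on both sides of 0. Nop2, an RNA methyltransferase, Nip7, Ebna1bp2 and the nucleolar GTPase gene Gnl3 had log2 fold changes of 0.35, 0.36, 0.40 and 0.28, none of which passed. Wdr74 was the exception in this role, with a negative estimate. Of the 11 large subunit genes, 4 were called higher (36.4%, against 5.06% of all genes) and none lower (against 6.85% of all genes), with a median log2 fold change of 0.37.

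Ubtf was the only called gene of RNA polymerase I transcription. It encodes the upstream binding factor, which coats active ribosomal DNA, and lies at chr11:102304560-102323649. Its level was 456, 467 and 428 CPM in wild-type lines and 627, 592, 534 and 473 CPM in Smchd1 null lines. In CPM the groups did not overlap, although the lowest Smchd1 null line (473 CPM) was close to the highest wild-type line (467 CPM). After TMM scaling they overlapped, with deviations of −0.10 in wild-type replicate 2 and −0.13 in Smchd1 null replicate 4. The log2 fold change was 0.36 (SE 0.10, limma FDR 0.046). Within batch 2 it was 0.37, with a limma FDR of 0.05 that no longer passed. Polr1a and Polr1b, which encode the large catalytic subunits of the polymerase, had log2 fold changes of 0.16 and 0.25. Polr1c, a subunit shared with RNA polymerase III, had −0.03 (SE 0.11, limma FDR 0.861).

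Tcof1 encodes treacle, which links RNA polymerase I transcription to RNA modification, and was among the 3 genes that varied most, with an SD of log2 CPM of 0.37. It stood at 414, 341 and 289 CPM in wild-type lines and 325, 317, 575 and 504 CPM in Smchd1 null lines. Only Smchd1 null replicates 3 and 4 exceeded the wild-type lines, and the log2 fold change of 0.23 did not pass (SE 0.19, limma FDR 0.435).

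None of the 7 snoRNP genes was called, against 11.9% of all genes. Dkc1, the pseudouridine synthase of the H/ACA snoRNPs, had the largest at 0.36 (SE 0.10, limma FDR 0.0601) and was called within batch 2. Nhp2 stood at 357, 252 and 233 CPM in wild-type lines and 297, 298, 278 and 248 CPM in Smchd1 null lines, with the Smchd1 null lines inside the wild-type range. Its log2 fold change was 0.23 (limma FDR 0.16), although the plain means were nearly equal, at 281 ± 66.6 and 280.3 ± 23.5 CPM. Gar1, of the same snoRNP, had 0.07 with an SE of 0.19. Among the box C/D proteins, Fbl had 0.28, Nop56 0.21 and Nop58 0.06.

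The 6 small subunit genes all had positive weighted estimates and none was called, against 11.9% of all genes. Rrp9, a protein of the U3 snoRNP, had a log2 fold change of 0.46 (limma FDR 0.0599) and Wdr43, a component of the small subunit processome, had 0.44 (limma FDR 0.0591). Both were called within batch 2. Utp20 had 0.37 with a wide SE of 0.18, and its plain means were 181 ± 81.3 CPM (SD, n = 3) in wild-type lines and 170 ± 43.4 CPM (SD, n = 4) in Smchd1 null lines. Noc4l had 0.29, Nop14 0.07 and Rrp12 0.09.

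Among the abundant nucleolar proteins, Ncl stood at 4254, 3409 and 2813 CPM in wild-type lines and at 4576, 4078, 3964 and 3421 CPM in Smchd1 null lines. All Smchd1 null lines exceeded wild-type replicates 2 and 3, but wild-type replicate 1 was the second highest of all 7, and the log2 fold change of 0.39 did not pass (SE 0.13, limma FDR 0.0781). Npm1 stood at 1617, 1002 and 956 CPM in wild-type lines and at 1104, 1023, 1087 and 883 CPM in Smchd1 null lines. Its excess in wild-type replicate 1 was the most marked feature, and the log2 fold change was 0.07 (SE 0.11, limma FDR 0.699). Ddx21, an RNA helicase, had 0.26, and Mybbp1a, a Myb-binding protein of the nucleolus, had 0.30 (limma FDR 0.0944).

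**Figure D4:**
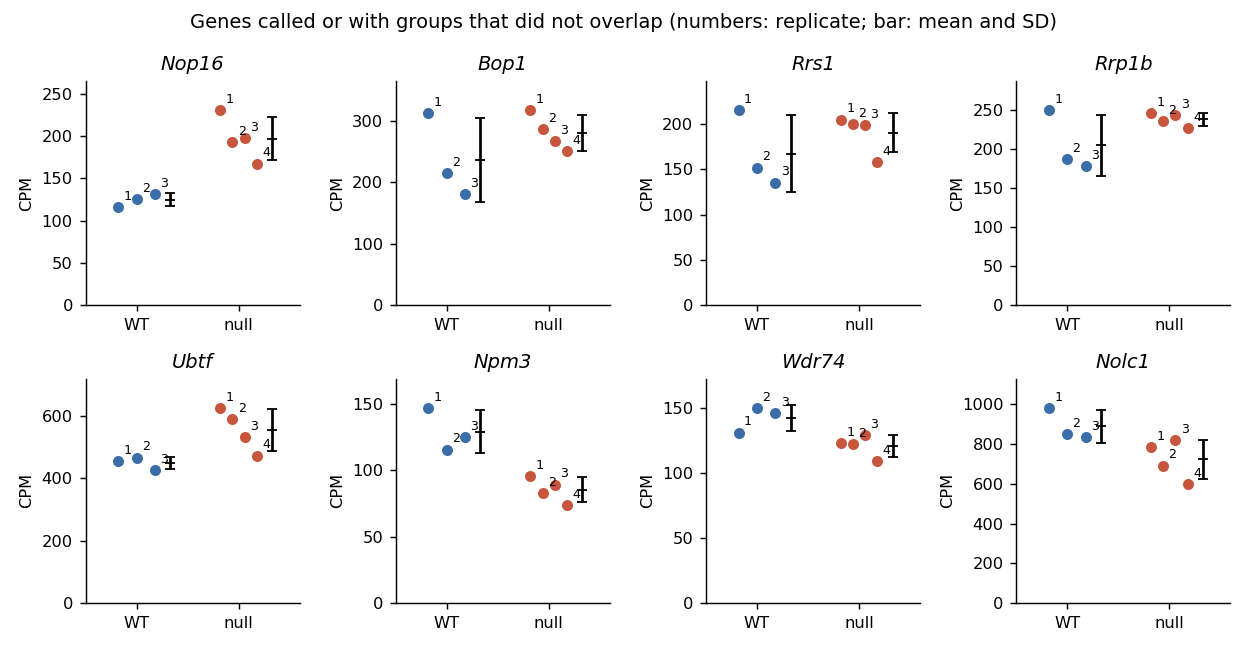
CPM (y axis, from 0) of the 8 genes that were called or whose groups did not overlap, in wild-type (WT, blue) and Smchd1 null (red) lines numbered by replicate, with group means and SD at the side. Nop16 and Ubtf lie wholly higher and Npm3, Wdr74 and Nolc1 wholly lower in Smchd1 null lines. After TMM scaling the groups overlap for Ubtf and Wdr74. For Bop1, Rrs1 and Rrp1b wild-type replicate 1 lies among or above the Smchd1 null lines.

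Npm3 fell in Smchd1 null lines and was the only one of the 34 genes called lower. It encodes a relative of nucleophosmin and lies at chr19:45747734-45749565 (Entrez 18150). Its level was 147, 116 and 125 CPM in wild-type lines and 95.7, 82.6, 89.3 and 73.7 CPM in Smchd1 null lines. Every Smchd1 null line was below every wild-type line. The wild-type mean was 129 ± 16.1 CPM (SD, n = 3) and the Smchd1 null mean 85.3 ± 9.42 CPM (SD, n = 4). This gave a log2 fold change of −0.47 (SE 0.10, limma FDR 0.0272; −0.47 within batch 2, limma FDR 0.0308). A pseudogene copy, Npm3-ps1, is annotated, and how reads shared with it were counted was not stated.

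In CPM the groups also did not overlap for Wdr74 and Nolc1, and neither passed the test. Both were lower in every Smchd1 null line than in every wild-type line. After TMM scaling the groups overlapped for Wdr74, with deviations of −0.03 in wild-type replicate 1 and 0.02 in Smchd1 null replicate 3. Wdr74, a factor of large subunit assembly at chr19:8735795-8740624, stood at 131, 150 and 146 CPM in wild-type lines and 123, 122, 129 and 109 CPM in Smchd1 null lines (log2 fold change −0.27, SE 0.09, limma FDR 0.0758). Nolc1, a chaperone of snoRNPs at chr19:46075847-46085543, stood at 982, 851 and 834 CPM in wild-type lines and 787, 692, 819 and 601 CPM in Smchd1 null lines (log2 fold change −0.20, SE 0.10, limma FDR 0.189). In CPM, wholly separated levels were thus found for 3 genes on the lower side (8.82%, against 6.85% of all genes). For 2 genes they lay on the higher side (5.88%, against 6.35% of all genes).

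All 3 of the genes separated in CPM on the lower side lie on chromosome 19, which holds 4 of the 34. The fourth, Rrp12 (chr19:41859483-41896153), stood at 112, 98.6 and 94.97 CPM in wild-type lines and 117, 110.2, 95.1 and 58.7 CPM in Smchd1 null lines. Replicate 4 was far below the other lines, and the groups overlapped (log2 fold change 0.09, SE 0.14, limma FDR 0.69). The 433 tested genes of the chromosome had a median weighted log2 fold change of −0.56, and 38.1% of them were called lower. The 4 nucleolar genes there had a median of −0.23. The median deviation of the chromosome was −0.13 in wild-type replicate 1, 0.36 and 0.51 in replicates 2 and 3, and −0.11 to −0.20 in the Smchd1 null lines. Wild-type replicate 1 thus lay within the range of the Smchd1 null lines, and only wild-type replicates 2 and 3 stood above it. Wdr74 followed a like order among wild-type lines, with deviations of −0.03, 0.23 and 0.19. Npm3 and Nolc1 were instead highest in wild-type replicate 1, with deviations of 0.49 and 0.27 there. The 30 nucleolar genes on other chromosomes included all 5 called higher (16.7%, against 5.06% of all genes) and none called lower (against 6.85% of all genes), with a median of 0.33 and 29 positive estimates. Chromosome 19 was set apart after its values were seen, and it holds the only gene called lower. The part of chromosome 19 in the results for its 4 nucleolar genes was not tested.

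**Figure D5:**
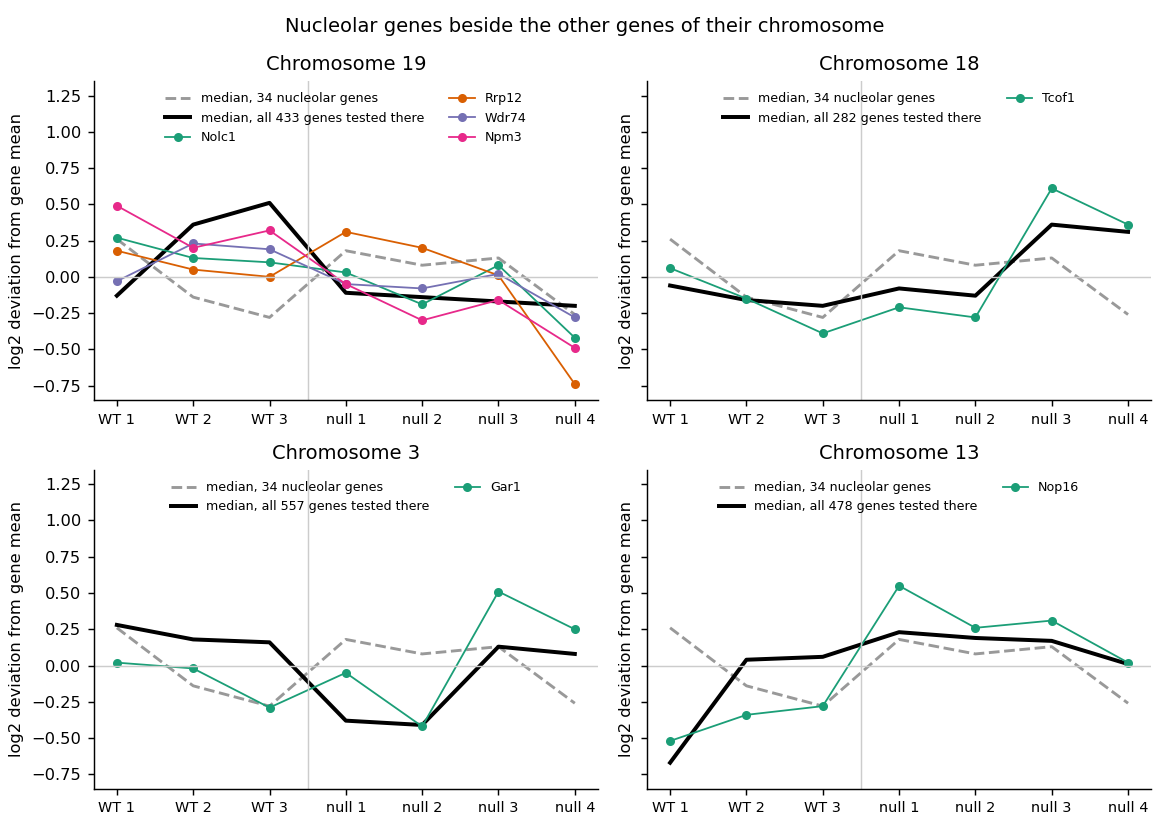
Deviation from the gene mean in log2 TMM-scaled CPM (y axis) across the 7 lines (x axis; WT, wild-type) for nucleolar genes on chromosomes 19, 18, 3 and 13 (coloured), the median of all tested genes of that chromosome (black) and the median of the 34 nucleolar genes (dashed). Lines join the libraries only to guide the eye; on chromosome 18, Tcof1 is highest in Smchd1 null replicates 3 and 4, as is the chromosome median.

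Other chromosomes also moved as a whole between lines. On chromosome 18, the median deviation of 282 genes was 0.36 and 0.31 in Smchd1 null replicates 3 and 4 and between −0.20 and −0.06 in the other 5 lines, and Tcof1 had its highest values, 0.61 and 0.36, in the same pair. Gar1, the only nucleolar gene on chromosome 3, stood at 146, 136 and 113 CPM in wild-type lines and 132, 104, 196 and 170 CPM in Smchd1 null lines. The median deviation of that chromosome was 0.28, 0.18 and 0.16 in wild-type lines, −0.38 and −0.41 in Smchd1 null replicates 1 and 2, and 0.13 and 0.08 in replicates 3 and 4. Gar1 deviated by 0.02, −0.02 and −0.29 in wild-type lines and by −0.05, −0.42, 0.51 and 0.25 in Smchd1 null lines. It was thus highest in Smchd1 null replicates 3 and 4, whereas the chromosome was highest in wild-type lines. On chromosome 13, where Nop16 lies, the median was −0.67 in wild-type replicate 1, 0.04 and 0.06 in replicates 2 and 3 and 0.01 to 0.23 in Smchd1 null lines, with a median log2 fold change of 0.13. Nop16 was also at its lowest in wild-type replicate 1, at −0.52, but stood at −0.34 and −0.28 in replicates 2 and 3. On chromosome 1, 17.9% of genes were called lower with a median of −0.22, while the 4 nucleolar genes there, Rrs1, Wdr12, Ncl and Nop58, had log2 fold changes of 0.44, 0.43, 0.39 and 0.06. Of the 34 genes, 33 had an estimate above the median of their chromosome, Polr1c being the exception. The part of these chromosome-wide differences in single genes was not tested.

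Myc mRNA was lower in Smchd1 null lines. It stood at 2544, 2094 and 2000 CPM in wild-type lines and at 1330, 1434, 1436 and 1408 CPM in Smchd1 null lines, so the groups did not overlap. The log2 fold change was −0.56 (SE 0.08, limma FDR 0.0106), and the Smchd1 null mean was 63.4% of the wild-type mean. Counts from the transgene and from the endogenous gene cannot be told apart. The summed level of the nucleolar genes, by contrast, was 1.05 times the wild-type level. Max, which encodes the partner of Myc, had a log2 fold change of −0.33 that did not pass (SE 0.12, limma FDR 0.106). Mycn was at 0 in all lines but Smchd1 null replicate 1, which had 2 counts.

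A further 116 ribosome biogenesis genes outside the 34, listed from general knowledge of the pathway, followed the same line pattern. Their median deviation was 0.26, −0.13 and −0.18 in wild-type replicates 1 to 3 and 0.10, 0.05, 0.14 and −0.22 in Smchd1 null replicates 1 to 4. Estimates were positive for 96 of the 116, with a median log2 fold change of 0.26. Differential expression was called for 15 (12.9%, against 11.9% of all genes), of which 13 were higher (11.2%, against 5.06%) and 2 lower (1.72%, against 6.85%). The 13 comprised none of the 11 genes of RNA polymerase I transcription, 1 of 9 snoRNP genes, 6 of 51 small subunit genes and 6 of 45 large subunit genes.

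The 5 of these called higher with the smallest FDR were Zfp593, Rpf2, Utp23, Nol12 and Mrto4. Zfp593, a zinc finger protein of large subunit assembly, stood at 12.7, 11.5 and 11.1 CPM in wild-type lines and 25.9, 21.5, 23.9 and 14.9 CPM in Smchd1 null lines, without overlap (log2 fold change 0.99, SE 0.16, limma FDR 0.0126). It was scarce beside the genes above, with 46 to 175 counts per library. Rpf2, which works with Rrs1 on the 5S ribonucleoprotein, rose with a log2 fold change of 0.61 (SE 0.12, limma FDR 0.0203), from 98.4, 63.2 and 57.9 CPM to 91.1, 90.1, 109 and 87.1 CPM. Wild-type replicate 1 lay within the Smchd1 null range, above replicates 2 and 3. Mrto4, a large subunit factor related to a ribosomal stalk protein, stood at 84.7, 60.7 and 57.9 CPM in wild-type lines and 95.7, 87.4, 78.9 and 68.2 CPM in Smchd1 null lines. Wild-type replicate 1 lay within the Smchd1 null range, and the log2 fold change was 0.52 (SE 0.11, limma FDR 0.0269).

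The 2 called lower were Nvl and Pdcd11. Nvl, an ATPase of large subunit maturation, stood at 135, 195 and 191 CPM in wild-type lines and 131, 128, 134 and 91.6 CPM in Smchd1 null lines (log2 fold change −0.59, SE 0.12, limma FDR 0.0215). Pdcd11, which acts in processing of the small subunit RNA, stood at 299, 297 and 298 CPM in wild-type lines and 221, 227, 234 and 155 CPM in Smchd1 null lines (log2 fold change −0.43, SE 0.10, limma FDR 0.0312). For both genes every Smchd1 null line was below every wild-type line in CPM. For Nvl the margin was 134.6 CPM in wild-type replicate 1 against 134.1 CPM in Smchd1 null replicate 3. TMM scaling, with factors of 1.033 and 0.985 in these lines, reverses that order. Pdcd11 lies on chromosome 19 and Nvl on chromosome 1, at chr1:181087138-181144214.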

How the data were processed

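TruSeq libraries of total RNA from the lymphoma lines were run on an Illumina HiSeq 2000. Per the labels and the study's methods, the authors demultiplexed reads with CASAVA (version 1.8.2), aligned them to mm10 with Subread and counted them per gene with featureCounts. The deposited values are raw counts per Entrez gene, with a gene length beside each count, not normalised and not pooled. The treatment of multi-mapping reads and of strand is not given in the sources used here.

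RefSeq (GRCm38.p6, the build of mm10) gave symbols and positions for 25275 of 27179 genes, which held 98.24% of all counts. CPM is the count over the library total, and 3 counts, taken as the floor, correspond to 0.399 to 0.827 CPM, a limit of counting error only. The filter kept 12303 genes that reached 0.5 CPM in 3 lines or more. They were normalised by TMM and fitted with voomWithQualityWeights in limma (version 3.58.1, R 4.3.3) with no covariate. The FDR is the Benjamini-Hochberg adjusted p over all genes tested. An FDR under 0.05 is called. An exact permutation test of Smchd1 over the 35 splits, two-sided, gave p = 0.0286, the smallest it can give. edgeR (version 4.0.16) and DESeq2 (version 1.42.0) were alternatives.

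The genes and lists were chosen with earlier results of these data known. Values per line are given for genes that were called or did not overlap, for the 3 highest, lowest, most variable and least variable, and, of the other pathway genes, for the 5 called with the smallest FDR in each direction. Gar1 was added after its values were seen. The marker Hbb-bt was not analysed.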

Additional observations from a re-analysis of the deposited data

Results flagged for a closer look

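Of 43 levels and sums screened in the 4 Smchd1 null lines, 4 had 1 line far from the other 3, judged by its gap to the nearest line over the range of the group against the critical value of Dixon's test at 95%. About 1 in 20 such groups is flagged by chance, which is 2.1 of 43. Polr1b, the second subunit of RNA polymerase I, stood at 163 CPM in Smchd1 null replicate 4 and at 217 to 224 CPM in the others (gap over range 0.882). Dkc1, the pseudouridine synthase, stood at 320.2 CPM in replicate 4 and at 424 to 444 CPM in the others (0.839). Rrs1, the 5S ribonucleoprotein factor that was called higher, stood at 158 CPM in replicate 4 and at 199 to 205 CPM in the others (0.868). Fbl, the snoRNP methyltransferase, stood at 63.8 CPM in replicate 3 and at 47.2 to 48.7 CPM in the others (0.912). In 3 of the 4 the line apart was replicate 4.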

How the results depend on the processing

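Counts of called genes below are for all genes tested, the 34 nucleolar genes and the 116 other pathway genes, in that order. Voom alone and edgeR each gave 12, 0 and 0 (unadjusted p under 0.05 for 2 of the 34 by each, and for 8 and 9 of the 116). DESeq2 gave 384, 2 and 0 (3 of the 34 and 9 of the 116 unadjusted), block weights 493, 1 and 1, sample removal 521, 1 and 4, and an FDR under 0.1 gave 2797, 15 and 38 (22.7% of all genes). Wild-type replicates 2 and 3 summed into 1 sample gave 1, 0 and 0 (2 of the 34 unadjusted). Batch as a covariate gave 1672, 10 and 20. Leaving out 1 line at a time gave 1 to 1683, 0 to 12 and 0 to 23 calls, with the lowest values without wild-type replicate 2 or 3, and 1 of the 34 without Smchd1 null replicate 1, 2 or 3. The median log2 fold change of the 34 lay between 0.02 and 0.32 with 1 line left out, and it was 0.11 with voom alone, 0.10 with edgeR, 0.34 with sample removal and 0.33 outside chromosome 19 (5 called), an alternative chosen after seeing the data. Smchd1 stayed between −3.23 and −3.02 in all fits. The replicate block, a pairing by replicate number, called 222, 0 and 0 genes, with 13 of the 34 at an unadjusted p under 0.05. Deviations of same-numbered lines correlated at −0.147, 0.223 and −0.197, against −0.234 to 0.202 for lines with different numbers. These values had mixed signs and are too few to settle whether the numbers pair the lines.

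Signs turned as follows, and the causes were not tested. Voom alone gave Nop58 −0.07, Nop14 −0.12, Utp20 −0.02, Rrp12 −0.13 and Npm1 −0.17. edgeR gave Nop58 −0.08, Nop14 −0.15, Utp20 −0.06, Rrp12 −0.08, Nop2 −0.01 and Npm1 −0.20, and DESeq2 gave −0.08, −0.15, −0.07, −0.09, −0.02 and −0.20 for the same genes. The summed pair gave Polr1c 0.06, Nop58 −0.08, Nop14 −0.19, Utp20 −0.05, Nop2 −0.01 and Npm1 −0.23. The replicate block gave Polr1c 0.05 and Gar1 −0.07. With 1 line left out, the ranges that crossed 0 were Ddx21 −0.0 to 0.29, Fbl −0.02 to 0.43, Gar1 −0.08 to 0.43, Nhp2 −0.02 to 0.25, Nip7 −0.01 to 0.46, Nop14 −0.21 to 0.09, Nop2 −0.04 to 0.39, Nop58 −0.13 to 0.10, Npm1 −0.25 to 0.10, Polr1b −0.01 to 0.28, Polr1c −0.14 to 0.08, Rrp12 −0.05 to 0.16 and Utp20 −0.13 to 0.42. The 6 called genes kept their sign, with ranges of 0.58 to 0.77 for Nop16, −0.61 to −0.44 for Npm3, 0.18 to 0.55 for Bop1, 0.16 to 0.46 for Rrs1, 0.18 to 0.39 for Rrp1b and 0.27 to 0.42 for Ubtf. Depth limits none of the 34, each of which had at least 209 counts in every library.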

Other observations

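The 13 other pathway genes called higher included 4 on chromosome 15, namely Snu13, Utp23, Rrp7a and Nol12, chosen here after their values were seen. Dcaf13 and Brix1, also listed and on that chromosome, were not called. Of all genes tested on chromosome 15, 9.71% were called higher, against 5.06% of all genes tested. Utp23, a small subunit factor, rose with a log2 fold change of 0.77 (SE 0.15, limma FDR 0.0218), from 27.6, 17.1 and 15.1 CPM in wild-type lines to 29.8, 25.7, 26.3 and 40.8 CPM in Smchd1 null lines. Nol12, a nucleolar protein of ribosomal RNA processing, rose with 0.50 (SE 0.10, limma FDR 0.0227), from 37.2, 32.5 and 33.4 CPM to 49.5, 45.1, 43.9 and 58.5 CPM, without overlap. Both were highest in Smchd1 null replicate 4, in which the nucleolar genes were otherwise low. The median deviation of the 453 tested genes of chromosome 15 was 0.42 in that line and between −0.10 and −0.01 in the other 6, and the part of this in these genes was not tested. Snu13, a box C/D snoRNP protein, was instead highest in wild-type replicate 1, at 356 CPM.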
